A study of Rattus norvegicus with 9 samples.

Results

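The serpins (serine protease inhibitors) were followed across laser-dissected rat liver cells as every gene on the array whose platform symbol is Serpin, a clade letter from a to i and a number. This rule found 46 genes among the 18166 named genes, each with 1 probe set. All 46 are listed under the same symbol by RefSeq. By their clade letter, 18 belong to clade A, 18 to clade B, 2 each to clades E, F and I, and 1 each to clades C, D, G and H. Of these, 32 were bright enough to be tested and 14 were not.

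The study used 9 Affymetrix whole-transcript arrays in 3 groups of 3, all from livers of female F344 rats. Every rat had been given 2 intraperitoneal injections of retrorsine (30 mg/kg, 2 weeks apart), a plant alkaloid that blocks division of mature hepatocytes, and part of the liver was removed 4 weeks after the last injection. In such livers small hepatocyte-like progenitors (SHPCs) grow as clusters. The first group held SHPC clusters from livers that had also received Thy1+ cells (called SHPC+Thy1 here), the second held SHPC clusters without that transplantation (SHPC), and the third held hepatocytes lying beside SHPCs, also without transplantation (hepatocyte). The Thy1+ cells had been sorted from DPPIV+ donors and were given through the spleen to DPPIV- rats. DPPIV is a surface enzyme that tells donor from host cells, and Thy1 is a surface glycoprotein. The cells on the arrays were cut from hematoxylin-stained frozen sections 7 µm thick, so each array holds a region and not a purified cell type. For the hepatocyte arrays a second label field gives SHPCs with transplantation, against the cell type field, which was followed here. The sources used here do not say how many animals stand behind the arrays, and p-values over arrays are too small wherever 1 animal gave more than 1 array.

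Most serpins bind a protease through an exposed loop, are cut by it and lock it in a dead complex, so that each inhibitor molecule is used up in the act. The liver secretes the serpins of blood plasma, among them the inhibitors of coagulation, fibrinolysis, complement and neutrophil elastase. Some members inhibit nothing: corticosteroid-binding globulin and thyroxine-binding globulin carry hormones, and Serpinh1 is a collagen chaperone of the endoplasmic reticulum. Clade B serpins mostly stay inside cells, where they guard against the cell's own or neighbouring cells' proteases.

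Array 2 of the SHPC group and array 2 of the hepatocyte group stood apart from the other 7. Their median intensities over all probe sets were 24.06 and 23.01, against 19.65 to 20.63 on the other arrays. They scored 54.09 and 42.21 on the first principal component, which held 54.44% of the variance, while the others scored between -22.82 and 2.30. Among the 12 tested serpins with a mean log2 intensity over 9, SHPC array 2 was the lowest of its group for all 12, and hepatocyte array 2 was the lowest of its group for 11. The same 2 arrays were the lowest of their groups for 93.89% and 84.35% of all 524 tested genes at that brightness. Changes of named serpins and medians of gene lists are also given without both arrays where this moved them by over 1.5 times or changed a call. Albumin (Alb) lay between 13.54 and 13.69 log2 units across the 9 arrays, near the top of the arrays' range, where differences may not show. The summed linear intensity of 20 hepatocyte genes ranged from 68987 to 71846 in SHPC+Thy1, 57899 to 69352 in SHPC and 60251 to 69038 in hepatocytes.

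**Figure D1:**
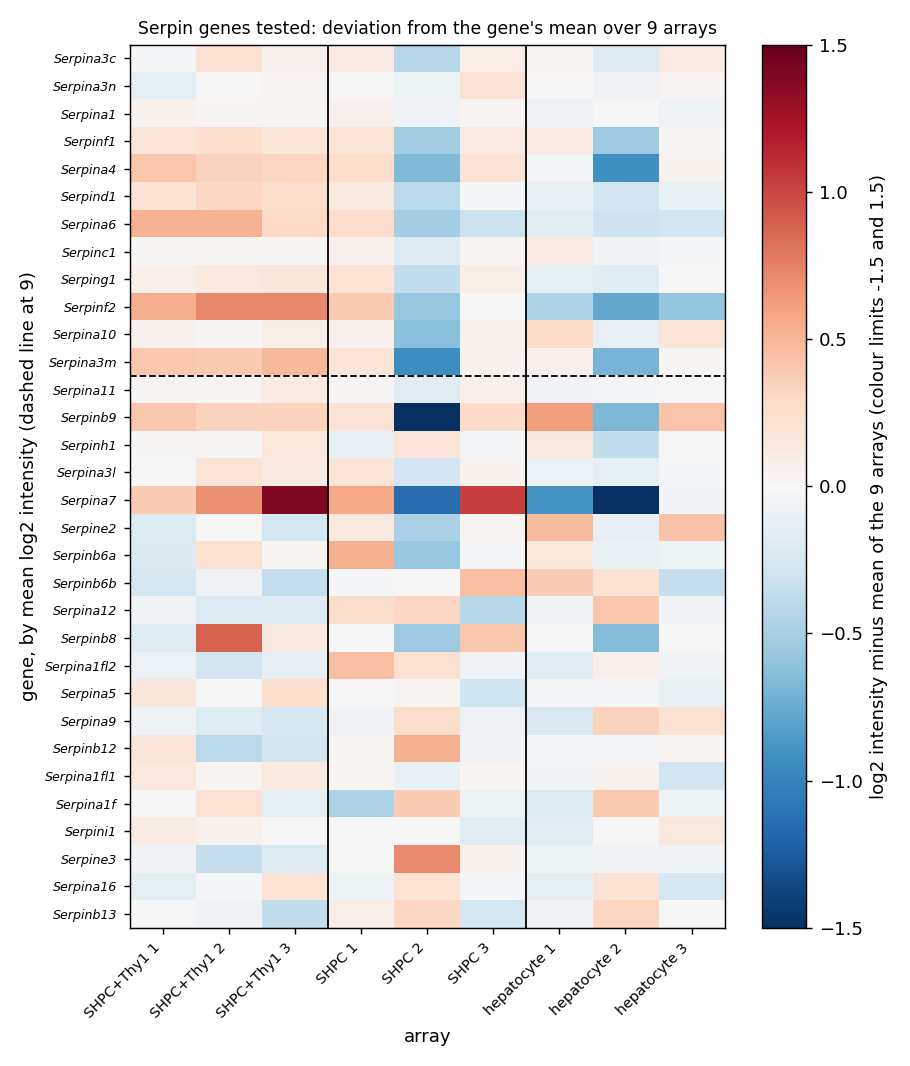
Log2 intensity of each of the 32 tested serpins (rows, brightest at the top) on each of the 9 arrays (columns, SHPC+Thy1 at the left, then SHPC, then hepatocyte), drawn as the deviation from that gene's mean over the arrays. Above the dashed line at a mean of 9, SHPC array 2 is the lowest of its group in all 12 rows. The colour scale ends at 1.5 log2 units, which Serpinb9 reaches on SHPC array 2 and Serpina7 on hepatocyte array 2.

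Serpinf2 was the only serpin that passed the test in any comparison. The gene encodes alpha-2-antiplasmin, the main plasma inhibitor of the clot-dissolving enzyme plasmin, and it was 2.41-fold higher in SHPC+Thy1 than in hepatocytes. Its log2 intensities were 10.20, 10.38 and 10.38 on the SHPC+Thy1 arrays, 10.04, 9.09 and 9.64 on the SHPC arrays, and 9.19, 8.89 and 9.07 on the hepatocyte arrays. All SHPC+Thy1 arrays lay above all arrays of the other groups, and of the SHPC arrays only array 2 lay within the range of the hepatocytes. The log2 change between SHPC+Thy1 and hepatocyte was 1.27 ± 0.22 (SE; 95% interval 0.78 to 1.76; limma, adjusted p = 0.0264 over all 15793 genes tested). Since each array holds a cut region, a higher level can mean more RNA per cell or more cells that make it, and the arrays cannot tell these apart.

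The other comparisons of Serpinf2 did not pass. The change was 0.73 ± 0.22 between SHPC+Thy1 and SHPC (limma, adjusted p = 0.460) and 0.54 ± 0.22 between SHPC and hepatocyte (limma, adjusted p = 1.0). Without the 2 arrays that stood apart the 3 changes were 1.19 for SHPC+Thy1 against hepatocyte (limma, adjusted p = 0.00534), 0.48 for SHPC+Thy1 against SHPC and 0.71 for SHPC against hepatocyte. The call between SHPC+Thy1 and hepatocyte was lost when any array of either group was left out. The adjusted p from limma was then 0.113, 0.128 and 0.142 without SHPC+Thy1 array 1, 2 and 3, and 0.0737, 0.103 and 0.103 without hepatocyte array 1, 2 and 3, while the change stayed between 1.19 and 1.34. The call was also lost with median centring of the arrays (limma, adjusted p = 0.0951) and with all probe sets tested (limma, adjusted p = 0.0765). Plg, the gene of plasminogen, from which plasmin is made, had a change of 0.20 ± 0.14 in the same comparison (limma, adjusted p = 0.660). Plg and the other protease partners below were picked for their known role and not by the rule for named genes.

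RefSeq promoters (250 bases before to 50 after the annotated start, build GRCr8) were available for 37 of the 46 serpins. Those of 3 secreted serpins are printed because Serpinf2 is the member that passed the test, Serpina7 the member with the largest change, and Serpina4 the bright member whose window holds an HNF1 core site. Capitals mark matches, on either strand, to an HNF1 core site (GTTAAT), a C/EBP site (TTGCNNAA), a STAT site (TTCNNNGAA), a TATA box (TATAAA) or an HNF4 site (CAAAGTCCA).
Serpinf2, chr10:60778733-60779032, minus strand: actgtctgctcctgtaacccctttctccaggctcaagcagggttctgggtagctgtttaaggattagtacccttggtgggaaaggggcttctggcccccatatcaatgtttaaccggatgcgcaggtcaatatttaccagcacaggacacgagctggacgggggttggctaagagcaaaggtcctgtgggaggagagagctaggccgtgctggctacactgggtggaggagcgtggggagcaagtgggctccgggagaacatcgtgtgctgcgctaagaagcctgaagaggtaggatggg
Serpina7, chrX:107457632-107457931, minus strand: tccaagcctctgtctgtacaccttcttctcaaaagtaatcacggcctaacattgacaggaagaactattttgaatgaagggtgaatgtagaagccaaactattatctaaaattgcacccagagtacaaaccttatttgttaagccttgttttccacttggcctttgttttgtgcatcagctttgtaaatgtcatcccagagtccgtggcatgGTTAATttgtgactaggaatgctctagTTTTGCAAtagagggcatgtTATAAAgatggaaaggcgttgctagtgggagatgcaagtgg
Serpina4, chr6:128764532-128764831, plus strand: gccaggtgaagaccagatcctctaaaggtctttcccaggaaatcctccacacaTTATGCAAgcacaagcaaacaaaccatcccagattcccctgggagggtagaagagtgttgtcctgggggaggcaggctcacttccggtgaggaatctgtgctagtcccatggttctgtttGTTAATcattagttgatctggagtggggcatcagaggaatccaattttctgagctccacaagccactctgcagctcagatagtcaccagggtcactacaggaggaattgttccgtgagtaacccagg
The Serpinf2 window held none of the 5 motifs. The Serpina7 window held an HNF1 core site starting at base -38, a C/EBP match at -11 and a TATA box at 10, counted from the annotated start. The Serpina4 window held a C/EBP match at -197 and an HNF1 core site at -77. Over all 33469 promoters in the table, 7.45% held the HNF1 core site, 10.6% the C/EBP site, 8.87% the STAT site, 14.2% the TATA box and 0.391% the HNF4 site. The 37 serpins had 40 promoters in all. Of the 7 promoters of serpins with a mean log2 intensity over 9, 1 held the HNF1 core site (Serpina4). The C/EBP site was in 2 of these 7, the STAT site in 1, and the TATA box and HNF4 site in 0. Of the 33 promoters of the other serpins, 2 held the HNF1 core site, 6 C/EBP, 5 STAT, 7 TATA and 0 HNF4. The 3 printed windows were picked and do not stand for the family. All of these are matches of letters and not measured binding.

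Across the whole family, 1 of the 32 tested serpins (Serpinf2) passed as higher in SHPC+Thy1 than in hepatocytes and 0 as lower, on a background of 0.861% of all tested genes called higher and 0.317% called lower. Between SHPC+Thy1 and SHPC 0 serpins passed in either direction, where 0.0% of all genes were called higher and 0.00633% (1 gene) lower. Between SHPC and hepatocyte 0 passed, where 0.0317% of all genes were called in each direction (5 genes each). With the sample number as a block the 10 genes became 35 in the fit of 9 arrays, with 0 serpins. In the fit of these 6 arrays, chosen after seeing the data, they became 76, with 1 serpin, Serpina7. With so few calls in the background, these counts say little about the serpins as a family. At an unadjusted limma p under 0.05, the counts of serpins were 5 of 32 for SHPC+Thy1 against SHPC (7.35% of all genes), 1 for SHPC against hepatocyte (4.12%) and 4 for SHPC+Thy1 against hepatocyte (10.4%).

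Counting by arrays gave more separation. For 12 of 32 serpins (37.5%) all 3 SHPC+Thy1 arrays lay above all 3 hepatocyte arrays, against 12.6% of all tested genes, and for 0 they lay below, against 6.64%. The 12 were Serpina1, Serpina3l, Serpina3m, Serpina4, Serpina5, Serpina6, Serpina7, Serpina11, Serpind1, Serpinf1, Serpinf2 and Serping1, all of clades A, D, F and G. Between SHPC+Thy1 and SHPC the arrays were apart for 6 serpins as higher (background 10.6%) and 3 as lower (background 5.23%). Between SHPC and hepatocyte they were apart for 1 serpin, Serpine3, as higher (background 2.72%) and for 0 as lower (background 2.49%). Brightness moves with this count. Among tested genes with a mean log2 intensity over 9, the SHPC+Thy1 arrays lay above the hepatocyte arrays for 8 of 12 serpins (66.7%) and for 214 of 524 genes (40.8%). Above the SHPC arrays they lay for 5 of 12 serpins (41.7%) and for 160 of 524 genes (30.5%). Whether the serpins differ from other bright genes was not tested.

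**Figure D2:**
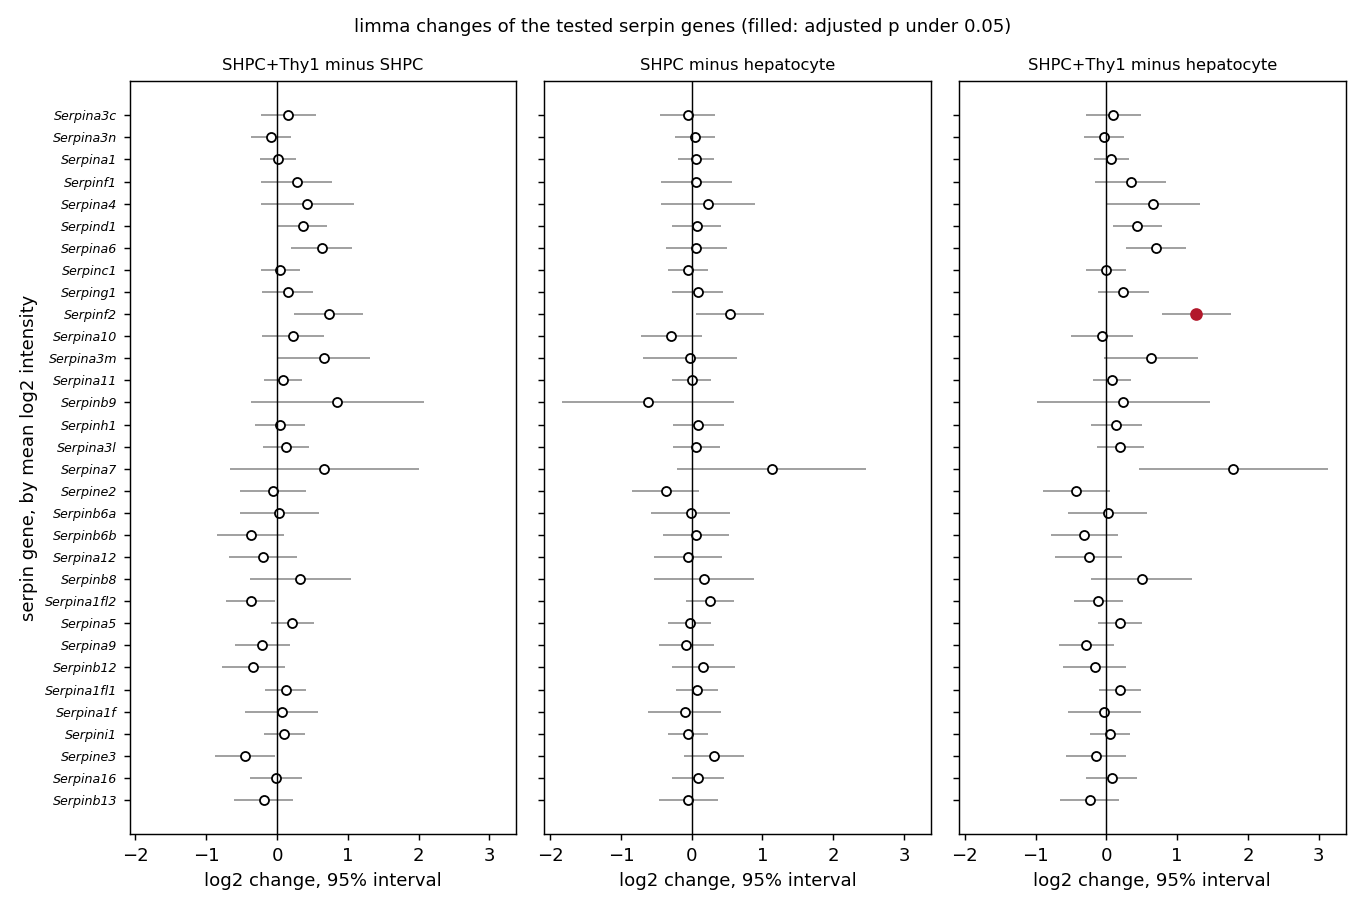
Log2 change with its 95% interval from limma for each of the 32 tested serpins (rows, brightest at the top), for SHPC+Thy1 minus SHPC, SHPC minus hepatocyte and SHPC+Thy1 minus hepatocyte. The filled point, Serpinf2 at 1.27 in the third panel, is the only one with an adjusted p under 0.05; Serpina7 at 1.80 in that panel has a wide interval.

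Over the 32 tested serpins the median log2 change was 0.08 for SHPC+Thy1 against hepatocyte, with 20 higher and 12 lower, beside a median of -0.001 over all tested genes. For SHPC against hepatocyte it was 0.06, with 18 higher and 14 lower, beside -0.006. For SHPC+Thy1 against SHPC it was 0.09, with 22 higher and 10 lower, beside 0.02 over all genes, but it was 0.01 with 17 higher without the 2 arrays that stood apart and -0.01 after cyclic loess normalization. The 12 bright serpins carried most of this: 11 of 12 were higher in SHPC+Thy1 than in SHPC, with a median of 0.25, which was 0.03 with 7 of 12 higher without both arrays and 0.004 after cyclic loess. Against hepatocytes, 9 of the 12 were higher in SHPC+Thy1, with a median of 0.29, which was 0.17, again with 9 higher, without both arrays and 0.09 after cyclic loess. The 20 dimmer tested serpins split evenly or nearly so, with 11 higher and a median of 0.03 in that comparison. Without both arrays 9 of them were higher, with a median of -0.02.

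**Figure D3:**
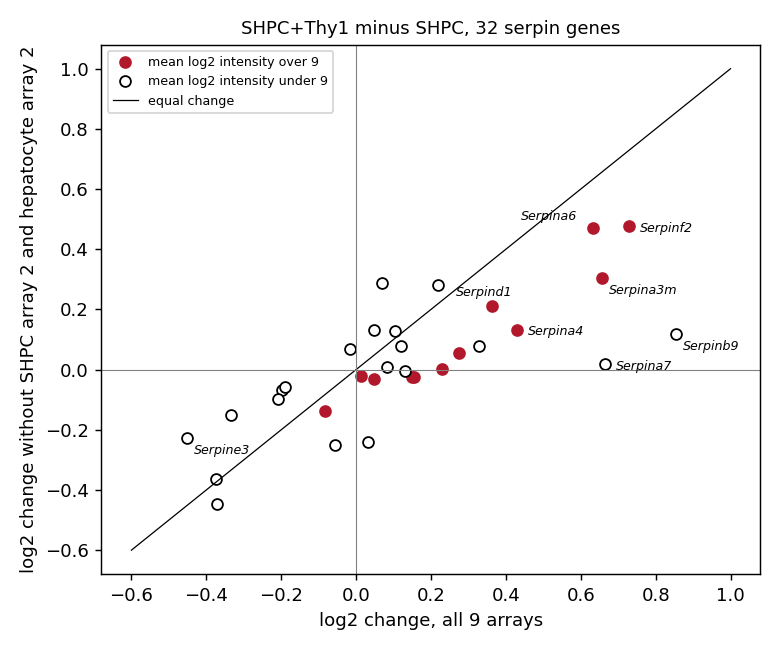
Log2 change between SHPC+Thy1 and SHPC for each of the 32 tested serpins, with all 9 arrays (horizontal axis) and without SHPC array 2 and hepatocyte array 2 (vertical axis); the line marks equal change, and filled points have a mean log2 intensity over 9. Serpinb9 (0.85 with all arrays, 0.12 without) and Serpina7 (0.67 and 0.02) lie far below the line, Serpinf2 (0.73 and 0.48) and Serpina6 (0.63 and 0.47) closer to it.

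The plasma inhibitors of coagulation had smaller changes than Serpinf2. Serpinc1, antithrombin, which blocks thrombin and factor Xa, was at nearly the same level in all groups. Its log2 intensities were 10.19, 10.19 and 10.20 on the SHPC+Thy1 arrays, 10.25, 9.99 and 10.20 on the SHPC arrays and 10.30, 10.13 and 10.15 on the hepatocyte arrays. The groups overlapped, and the change between SHPC+Thy1 and hepatocyte was -0.002 with a 95% interval of -0.28 to 0.28. Serpind1, heparin cofactor II, a second thrombin inhibitor, had 10.82, 10.91 and 10.86 in SHPC+Thy1, 10.73, 10.20 and 10.58 in SHPC, and 10.49, 10.31 and 10.49 in hepatocytes. Its SHPC+Thy1 arrays lay above all 6 others. The change was 0.44 ± 0.15 against hepatocyte (limma, adjusted p = 0.332) and 0.36 ± 0.15 against SHPC (limma, adjusted p = 0.669), so neither passed. Leaving out SHPC array 2 gave 0.21 against SHPC, and cyclic loess gave 0.11.

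Serpina10, the protein Z-dependent inhibitor of factor Xa, which RefSeq also lists as Rasp1 (regeneration-associated serpin), had a negative change between the untransplanted groups. Its values were 9.58, 9.54 and 9.62 in SHPC+Thy1, 9.58, 8.90 and 9.57 in SHPC, and 9.79, 9.41 and 9.70 in hepatocytes. SHPC arrays 1 and 3 lay just under hepatocyte arrays 1 and 3, and the change of -0.29 ± 0.20 did not pass (limma, adjusted p = 1.0). It was -0.17 without the 2 arrays that stood apart. Among the proteases these inhibitors act on, F2, the gene of prothrombin, had changes of 0.05 in SHPC+Thy1 against each of the other groups (-0.05 against SHPC without the 2 arrays), and F10, the gene of factor X, had 0.14 ± 0.12 against hepatocyte (limma, adjusted p = 0.734).

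Beside Serpinf2, the hormone carriers held the largest changes in the comparison of SHPC+Thy1 with hepatocytes. Serpina6, corticosteroid-binding globulin, had 11.03, 11.02 and 10.80 in SHPC+Thy1, 10.77, 9.99 and 10.19 in SHPC, and 10.33, 10.20 and 10.22 in hepatocytes. All SHPC+Thy1 arrays lay above all others, while SHPC and hepatocyte overlapped. The change was 0.70 ± 0.19 against hepatocyte (limma, adjusted p = 0.166) and 0.63 ± 0.19 against SHPC (limma, adjusted p = 0.461). It fell short of the threshold in both, and was 0.67 and 0.47 without the 2 arrays that stood apart.

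Serpina7, thyroxine-binding globulin, had the largest difference of any serpin and also a large spread. Its log2 intensities were 6.87, 7.17 and 7.89 in SHPC+Thy1, 7.06, 5.35 and 7.52 in SHPC, and 5.60, 4.49 and 6.45 in hepatocytes. The SHPC+Thy1 arrays lay above all hepatocyte arrays, and in both untransplanted groups array 2 was the lowest and array 3 the highest. The change was 1.80 ± 0.60 for SHPC+Thy1 against hepatocyte (limma, adjusted p = 0.286), 1.13 ± 0.60 for SHPC against hepatocyte (limma, adjusted p = 1.0) and 0.67 ± 0.60 for SHPC+Thy1 against SHPC (limma, adjusted p = 0.749). Samples of SHPC and hepatocyte with the same number deviated together over all genes, but so did SHPC array 3 and hepatocyte array 1 (correlation 0.480). The highest correlation, 0.705, was between the 2 arrays that stood apart, and no label pairs the samples. The block therefore cannot tell pairs of samples from these 2 arrays. With the number as a block in a fit of these 6 arrays, chosen after seeing the data, Serpina7 passed as higher in SHPC than in hepatocytes (limma, adjusted p = 0.0240). With the block in the fit of all 9 arrays it did not (limma, adjusted p = 0.381). Within each number the SHPC array exceeded the hepatocyte array, but the share of all genes with this pattern was not taken.

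**Figure D4:**
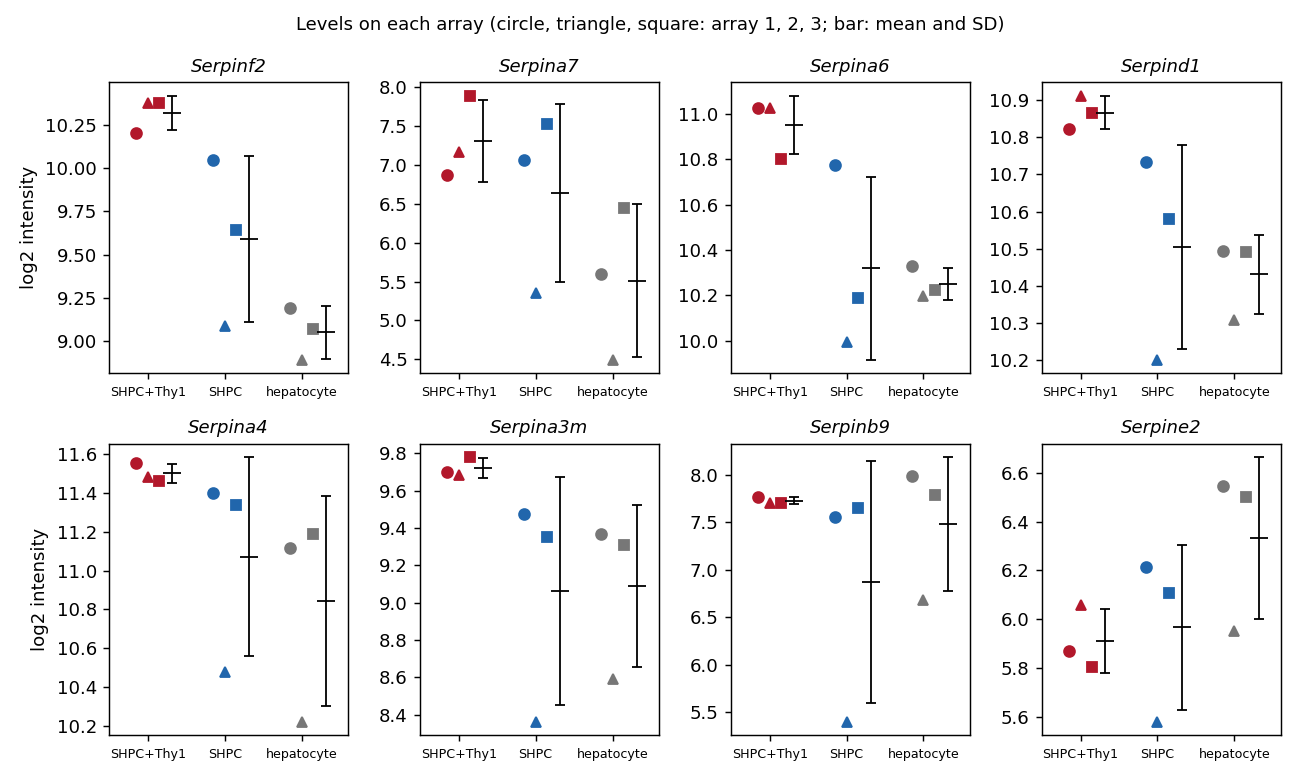
Log2 intensity of 8 serpins on each array of SHPC+Thy1, SHPC and hepatocyte (left to right in each panel; circle, triangle and square are array 1, 2 and 3), with the mean and SD of the 3 arrays; vertical axes differ between panels and do not start at 0. Serpinf2 shows SHPC+Thy1 between 10.20 and 10.38, above every other array; array 2 of SHPC is the lowest of its group in each panel.

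Serpina1, alpha-1-antitrypsin, which protects tissue from neutrophil elastase, hardly varied. It had 11.80, 11.78 and 11.77 in SHPC+Thy1, 11.82, 11.70 and 11.79 in SHPC, and 11.68, 11.76 and 11.69 in hepatocytes. The SHPC+Thy1 arrays lay just above the hepatocyte arrays, by a change of 0.07 ± 0.11 (limma, adjusted p = 0.853). Elane, the gene of neutrophil elastase itself, had means of 3.78 in SHPC+Thy1, 3.98 in SHPC and 3.84 in hepatocytes. The genes Serpina1f, Serpina1fl1 and Serpina1fl2, which stand beside Serpina1 on chromosome 6, were dim. Serpina1fl2 had 3.49, 3.30 and 3.44 in SHPC+Thy1, 4.03, 3.80 and 3.53 in SHPC, and 3.40, 3.64 and 3.52 in hepatocytes, so that SHPC+Thy1 lay below SHPC by 0.37 ± 0.15 (limma, adjusted p = 0.655).

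The Serpina3 genes are a rodent expansion of the gene that in humans encodes alpha-1-antichymotrypsin, and their probe sets may share sequence, which was not tested. Serpina3c, which RefSeq also lists as Kbp (kallikrein-binding protein), had 12.22, 12.46 and 12.31 in SHPC+Thy1, 12.37, 11.82 and 12.34 in SHPC, and 12.27, 12.06 and 12.36 in hepatocytes. Serpina3n, known in rodents as an acute phase serpin, had 12.05, 12.20 and 12.24 in SHPC+Thy1, 12.20, 12.14 and 12.39 in SHPC, and 12.21, 12.14 and 12.24 in hepatocytes. For both the groups overlapped in every comparison, with changes between -0.08 and 0.16, or between -0.14 and 0.08 without the 2 arrays that stood apart. Serpina3m differed from them: it had 9.70, 9.68 and 9.78 in SHPC+Thy1, 9.48, 8.36 and 9.35 in SHPC, and 9.37, 8.59 and 9.31 in hepatocytes. All its SHPC+Thy1 arrays lay above all others, and in both other groups array 2 was far below the rest. The change was 0.66 ± 0.30 against SHPC (limma, adjusted p = 0.683) and 0.63 ± 0.30 against hepatocyte (limma, adjusted p = 0.506), and 0.31 and 0.38 without the 2 arrays that stood apart. Serpina3l lay between 6.36 and 6.83 on all arrays, and its largest change was 0.20.

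Serpina4, kallistatin, which in humans inhibits tissue kallikrein, had 11.56, 11.48 and 11.46 in SHPC+Thy1, 11.40, 10.48 and 11.34 in SHPC, and 11.12, 10.22 and 11.19 in hepatocytes. The SHPC+Thy1 arrays lay above all others. The change was 0.66 ± 0.30 against hepatocyte (limma, adjusted p = 0.484) and 0.43 ± 0.30 against SHPC (limma, adjusted p = 0.720). Without the 2 arrays that stood apart these were 0.35 and 0.13.

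Serpinf1, pigment epithelium-derived factor, a secreted protein that restrains vessel growth and inhibits no protease, is the neighbour of Serpinf2 on chromosome 10. It had 11.78, 11.84 and 11.78 in SHPC+Thy1, 11.78, 11.08 and 11.71 in SHPC, and 11.71, 11.04 and 11.61 in hepatocytes. Its change against hepatocyte was 0.34 ± 0.22 (limma, adjusted p = 0.653), or 0.14 without the 2 arrays that stood apart, beside 1.27 and 1.19 for Serpinf2. Serping1, C1 inhibitor, which restrains the first complement proteases and plasma kallikrein, had 10.04, 10.12 and 10.13 in SHPC+Thy1, 10.17, 9.60 and 10.07 in SHPC, and 9.83, 9.78 and 9.97 in hepatocytes. The SHPC+Thy1 arrays lay above the hepatocyte arrays, by 0.24 ± 0.16 (limma, adjusted p = 0.665). None of its target proteases passed either. C1s averaged 10.08 in SHPC+Thy1 and 9.44 in hepatocytes (change 0.64 ± 0.17, limma, adjusted p = 0.145), C1r averaged 10.58 in SHPC+Thy1 and 10.38 in hepatocytes (change 0.20 ± 0.15, limma, adjusted p = 0.684), and Klkb1, plasma prekallikrein, averaged 8.42 in SHPC+Thy1 and 7.45 in hepatocytes (change 0.97 ± 0.20, limma, adjusted p = 0.0607).

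The remaining tested clade A genes were dim or flat. Serpina11, a plasma serpin, lay between 7.43 and 7.73. Serpina12 (vaspin), Serpina5 (protein C inhibitor), Serpina9, Serpina16, Serpina1f and Serpina1fl1 had means between 3.05 and 4.19, while the 25th percentile of all probe sets was 2.85 to 3.14 on the arrays. Serpina9 had 3.50, 3.37 and 3.29 in SHPC+Thy1, 3.50, 3.82 and 3.47 in SHPC, and 3.34, 3.89 and 3.78 in hepatocytes. Its changes against hepatocyte were -0.29 ± 0.17 for SHPC+Thy1 (limma, adjusted p = 0.631) and -0.08 ± 0.17 for SHPC, or -0.17 and -0.08 without the 2 arrays that stood apart. With hepatocyte array 2 alone left out, the change for SHPC was 0.03.

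Of the 18 clade B genes 6 were tested, and none passed in any comparison. Serpinb9, which blocks granzyme B in cytotoxic lymphocytes and in cells exposed to them, had the brightest probe set of these. It had 7.77, 7.71 and 7.70 in SHPC+Thy1, 7.56, 5.40 and 7.65 in SHPC, and 7.99, 6.68 and 7.79 in hepatocytes. The SHPC value of 5.40 on array 2 set the group's SD of 1.27, the highest of any tested serpin. The change between SHPC and hepatocyte was -0.61 ± 0.55 (limma, adjusted p = 1.0). It was -0.28 without the 2 arrays that stood apart, and 0.12 with SHPC array 2 alone left out. Against SHPC, SHPC+Thy1 differed by 0.85 ± 0.55 (limma, adjusted p = 0.708), or by 0.12 without the 2 arrays that stood apart. Gzmb itself averaged 2.95 in SHPC+Thy1, 2.98 in SHPC and 2.88 in hepatocytes.

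Serpinb6b, an intracellular serpin of the chromosome 17 cluster, had 4.72, 4.93 and 4.63 in SHPC+Thy1, 4.98, 4.98 and 5.44 in SHPC, and 5.37, 5.21 and 4.64 in hepatocytes. The SHPC+Thy1 arrays lay below all SHPC arrays but overlapped the hepatocyte arrays. The change was -0.37 ± 0.21 against SHPC (limma, adjusted p = 0.706). Serpinb6a, its relative, lay between 5.04 and 6.14 with changes of at most 0.03 in size. Without the 2 arrays that stood apart these were -0.24 for SHPC+Thy1 against SHPC and 0.21 for SHPC against hepatocyte. Serpinb12 had 3.63, 3.03 and 3.16 in SHPC+Thy1, 3.46, 3.98 and 3.39 in SHPC, and 3.42, 3.42 and 3.49 in hepatocytes, with a change of -0.34 ± 0.20 between SHPC+Thy1 and SHPC (limma, adjusted p = 0.706), or -0.15 without SHPC array 2. Serpinb13 had 2.94, 2.90 and 2.57 in SHPC+Thy1, 3.04, 3.26 and 2.68 in SHPC, and 2.90, 3.26 and 2.95 in hepatocytes, with a change of -0.24 ± 0.19 between SHPC+Thy1 and hepatocyte (limma, adjusted p = 0.707), or -0.12 without hepatocyte array 2. The groups of Serpinb12 and Serpinb13 overlapped in every comparison, at levels close to the arrays' 25th percentile. Serpinb8 ranged from 3.02 to 4.56 and had the highest SD within SHPC+Thy1, 0.55.

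Serpine2, protease nexin-1, which blocks thrombin, urokinase and tissue plasminogen activator at cell surfaces, was the member lowest in SHPC+Thy1 relative to hepatocytes. It had 5.87, 6.06 and 5.81 in SHPC+Thy1, 6.21, 5.58 and 6.11 in SHPC, and 6.55, 5.95 and 6.50 in hepatocytes. Only hepatocyte array 2 overlapped the SHPC+Thy1 range. The change was -0.42 ± 0.21 (limma, adjusted p = 0.541). Without the 2 arrays that stood apart it was -0.61 and passed (limma, adjusted p = 0.0248). Between SHPC and hepatocyte it was -0.37 ± 0.21 (limma, adjusted p = 1.0). The genes of its target proteases gave -0.23 ± 0.12 for Plau (limma, adjusted p = 0.559) and 0.17 ± 0.16 for Plat (limma, adjusted p = 0.745; 0.08 without the 2 arrays) between SHPC+Thy1 and hepatocyte.

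Serpine3, a dim relative, had 3.07, 2.76 and 2.91 in SHPC+Thy1, 3.11, 3.82 and 3.16 in SHPC, and 3.05, 3.05 and 3.06 in hepatocytes. The SHPC arrays lay above all others, with array 2 the highest. The change was -0.45 ± 0.19 between SHPC+Thy1 and SHPC (limma, adjusted p = 0.658) and 0.31 ± 0.19 between SHPC and hepatocyte (limma, adjusted p = 1.0), or -0.23 and 0.08 without the 2 arrays that stood apart. Serpini1, neuroserpin, lay between 2.96 and 3.26.

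Serpinh1, the collagen chaperone HSP47, lay between 6.37 and 6.93 on all arrays, with changes of 0.14 ± 0.16 for SHPC+Thy1 against hepatocyte (limma, adjusted p = 0.791) and 0.05 ± 0.16 against SHPC (limma, adjusted p = 0.933). Without the 2 arrays that stood apart these were -0.005 and 0.13. Its client Col1a1 had changes of 0.10 ± 0.15 in both comparisons. Col3a1, another client, had 0.28 ± 0.18 against hepatocyte (limma, adjusted p = 0.653) and 0.32 ± 0.18 against SHPC (limma, adjusted p = 0.706). Without the 2 arrays these were 0.26 and 0.20. In the list of 20 tested genes of collagen and collagen folding, 13 were higher and 7 lower in SHPC+Thy1 than in hepatocytes, with a median of 0.10 (0.06 without the 2 arrays) and 0 called. The folding enzyme Ppib had the smallest p of that list, with a change of 0.92 ± 0.21 (limma, adjusted p = 0.0835).

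The 14 serpins that were not tested lay between 1.45 and 3.21 log2 units. They were Serpina3j, Serpini2 and 12 clade B genes: Serpinb1a, Serpinb1b, Serpinb2, Serpinb3, Serpinb3a, Serpinb5, Serpinb6e, Serpinb6el1, Serpinb7, Serpinb9d, Serpinb10 and Serpinb11. Each exceeded the array's 25th percentile on at most 1 of the 9 arrays. At this brightness a low signal does not show that the gene is silent.

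The genomic clusters differed in how many members could be tested, although the signals of different probe sets do not rank the RNA of their genes. On the RefSeq rat assembly GRCr8, 17 members lie on chromosome 6, all of clade A, of which 16 were tested and 7 had a mean over 9. Chromosome 13 holds 10 clade B members and Serpinc1, and of its 11 members 4 were tested. Chromosome 17 holds 8 members, all of clade B, of which 3 were tested and 0 had a mean over 9. Within the chromosome 6 cluster bright and dim probe sets are interleaved: Serpina10 and Serpina6 stand next to Serpina16 and Serpina1f, and Serpina4 stands next to Serpina5.

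The spread within groups differed. Among the 12 bright serpins the median SD of log2 intensity was 0.05 in SHPC+Thy1, 0.35 in SHPC and 0.13 in hepatocytes. Over all tested genes, of which 524 had a mean over 9, it was 0.11, 0.25 and 0.23. The SD of those 524 genes alone was not taken. The 2 arrays that stood apart differed most from their groups in bright genes. For the 524, SHPC array 2 and hepatocyte array 2 had median differences of -0.616 and -0.395 from the rest of their groups. For dimmer tested genes these were -0.014 and -0.016. The lowest SD of a bright serpin was 0.005, that of Serpinc1 in SHPC+Thy1. Each SD rests on 3 arrays, and the arrays that stood apart belong to the groups with the wider spread.

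Protease inhibitors of other families were read beside the serpins. Of 27 tested, 24 were higher and 3 lower in SHPC+Thy1 than in hepatocytes, with a median of 0.24, and 2 passed. A2m, alpha-2-macroglobulin, which traps proteases of all classes, had 6.20, 6.92 and 7.43 in SHPC+Thy1, 6.56, 6.63 and 6.66 in SHPC, and 3.96, 5.28 and 4.50 in hepatocytes. Its change between SHPC+Thy1 and hepatocyte was 2.27 ± 0.35 (limma, adjusted p = 0.0206), and between SHPC and hepatocyte 2.03 ± 0.35 (limma, adjusted p = 0.114). Both SHPC groups lay apart from the hepatocytes on every array. Spink1, the pancreatic secretory trypsin inhibitor, had 5.72, 5.04 and 5.49 in SHPC+Thy1, 4.40, 4.28 and 5.89 in SHPC, and 2.53, 3.06 and 3.61 in hepatocytes, a change of 2.35 ± 0.42 for SHPC+Thy1 against hepatocyte (limma, adjusted p = 0.0309). Between SHPC+Thy1 and SHPC this list had 24 higher, 0 called and a median of 0.22; leaving out SHPC array 2 gave 0.09, and cyclic loess gave 0.08.

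The proteases and coagulation factors had 27 of 43 tested genes higher and 16 lower in SHPC+Thy1 than in hepatocytes, with 0 called and a median of 0.09, which was 0.009 with 23 higher without the 2 arrays that stood apart and 0.001 after cyclic loess. Acute phase genes had 21 higher and 4 lower of 25, with a median of 0.21 (0.02 after cyclic loess) and 2 called, A2m and the interleukin-1 receptor antagonist Il1rn (change 1.39 ± 0.27, limma, adjusted p = 0.0430). The acute phase list holds genes that rise in an acute phase and others that fall, such as Alb and Ttr. Its count of higher genes therefore does not measure an acute phase rise. It also shares Alb, Ttr, Tf, Ahsg, Fgb and Tat with the list of hepatocyte genes. Hepatocyte genes had 15 higher and 4 lower of 19, with a median of 0.14 and 0 called, and the median turned to -0.04 after cyclic loess. Albumin itself had a change of 0.06 ± 0.11 (limma, adjusted p = 0.880).

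Markers of other liver cells were read in the same comparisons, and 1 passed. All 18 Kupffer cell and macrophage markers were higher in SHPC+Thy1 than in SHPC, with a median change of 0.57, which was 0.20 without the 2 arrays that stood apart, and 0 called. Against hepatocytes 16 of 18 were higher with a median of 0.28, or 11 of 18 with a median of 0.08 without the 2 arrays, and Marco passed (change 0.80 ± 0.16, limma, adjusted p = 0.0456). Their summed linear intensity ranged from 4043 to 4694 in SHPC+Thy1, 2075 to 3540 in SHPC and 2856 to 3893 in hepatocytes. The summed intensity of all 46 serpins ranged from 29079 to 30666 in SHPC+Thy1, 21161 to 29290 in SHPC and 22382 to 26699 in hepatocytes. Stellate cell and fibroblast markers were higher in SHPC+Thy1 than in hepatocytes for 12 of 16 tested, with sums of 3286 to 3594 in SHPC+Thy1, 1809 to 3117 in SHPC and 2157 to 3584 in hepatocytes. Their median change in that comparison was 0.28, or 0.14 without the 2 arrays. Endothelium markers were higher for 6 of 9, with a median of 0.16, or 0.03 without the 2 arrays. T and NK cell markers were higher for 8 of 10, with Cd3d and Cd3g too dim to test. Cholangiocyte markers were higher for 6 of 11, but their summed intensity was lowest in SHPC+Thy1. It was 361 to 393 in SHPC+Thy1, 487 to 562 in SHPC and 433 to 469 in hepatocytes. Neutrophil and mast cell markers were higher for 1 of 9 with a median of -0.18, or for 3 of 9 with a median of -0.06 without the 2 arrays. Of this list S100a8, Mcpt1, Cpa3 and Ms4a2 were too dim to test. No marker was at 0, since array signals keep a floor. The part of these cells in the serpin values was not tested.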

How the data were processed

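The values are 9 Affymetrix whole-transcript arrays, labelled with the Ambion WT kit per the labels' protocols. The submitters' processing notes name RMA with no version, and no genome build is given. The deposited values are probe set intensities on the linear scale; their log2 was used. Per the platform annotation 18511 probe sets carry 1 symbol and 575 several, which were left out; each of the 18166 genes was read from its probe set with the highest mean. Genes were tested where at least 3 of 9 arrays exceeded the array's 25th percentile, which left 15793. A limma fit (version 3.58.1 in R 4.3.3) of 3 group means over 9 arrays gave changes and Benjamini-Hochberg adjusted p over all tested genes, called under 0.05. The fit was also run on simulated data with independent noise and no arrays that stood apart. That run cannot show how the fit handles such arrays. The number of arrays limits the precision, and p-values measure only the spread between these arrays, which may be technical.

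The family, the gene lists and the tests were chosen with earlier results of these data known. Values on every array are given for serpins called in any comparison, for the 4 with the smallest p in each direction of each comparison, and for the 10 with the highest mean; the 2 genes with the smallest p of a list may be named. Deviations from the group means of arrays with the same number correlated at 0.341 to 0.705 for SHPC with hepatocyte. The 0.705 was that of the 2 arrays that stood apart. Arrays with different numbers also correlated, at 0.480 for SHPC array 3 with hepatocyte array 1 and 0.237 for SHPC array 1 with hepatocyte array 3. These values therefore cannot show that the numbers are pairs, and no label pairs the samples. The number was left out of the main fit and used as a block in alternatives only. For same-numbered arrays the correlations were -0.0936 to 0.0023 for SHPC+Thy1 with SHPC and -0.0904 to -0.069 for SHPC+Thy1 with hepatocyte. The alternatives were other scalings, filters, probe set rules, array weights, the number as a block, and leaving out arrays.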

Additional observations from a re-analysis of the deposited data

How the results depend on the processing

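The 3 arrays a group, the 2 arrays that stood apart and signals near the floor limit what can be seen, and calls moved with most settings. For the serpins, Serpinf2 between SHPC+Thy1 and hepatocyte passed in 13 of 21 alternatives, with adjusted p between 8.79e-05 and 0.142 and changes of 1.07 to 1.36. It missed with median centring (limma, adjusted p = 0.0951) and with all probe sets tested (0.0765), which left 0 serpins called, and 0 to 1 were called when arrays were left out in turn. In that comparison 2 serpins were called with the compared groups only (Serpinf2, Serpina6), 2 without both arrays that stood apart (Serpinf2, Serpine2) and 8 with array quality weights. Between SHPC and hepatocyte 1 was called with array weights (Serpinf2). No serpin was called between SHPC+Thy1 and SHPC in any alternative. The change of Serpina9 between SHPC and hepatocyte ranged from -0.245 to 0.034 with arrays left out in turn, positive without hepatocyte array 2, and that of Serpinb9 from -1.016 to 0.12, positive without SHPC array 2; without both arrays that stood apart they were -0.078 and -0.282, negative as with all arrays. That of Serpinb6b between SHPC+Thy1 and hepatocyte was 0.028 with array weights. Over single genes, 474 alternatives kept direction and side of the threshold, 11 brought a gene past it, 8 lost a call and 3 turned the direction. All 8 lost calls were of Serpinf2 between SHPC+Thy1 and hepatocyte, the only call of the main fit. Of the 474, 13 kept that call, and the rest were changes not called that stayed so. Leaving out an array of the group not compared can move the p-value but not the change.

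With the replicate block, 2 serpins passed between SHPC+Thy1 and hepatocyte in the fit of 9 arrays and 2 in the fit of 6 (Serpinf2, Serpina7), although same-numbered arrays of these groups do not deviate together. Between SHPC and hepatocyte same-numbered arrays do, but so did SHPC array 3 with hepatocyte array 1 (correlation 0.480). There 0 passed in the fit of 9 arrays and 1 (Serpina7) in the fit of 6, which was chosen after seeing the data. The block in the fit of 9 arrays called 64, 35 and 367 genes over SHPC+Thy1 against SHPC, SHPC against hepatocyte and SHPC+Thy1 against hepatocyte; in the fit of 6 it called 0 and 76 in the first 2.

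Over all genes, the count between SHPC+Thy1 and SHPC was 1, and 0 with median centring, 40 with cyclic loess, 17 with a repeated quantile normalization, 0 with the compared groups only, 259 with array weights, 23 without both arrays and 0 to 24 with arrays left out in turn. Between SHPC and hepatocyte it was 10, and in the same settings 0, 34, 17, 0, 375 and 48, with 0 when all probe sets were tested and 0 to 53 with arrays left out. Between SHPC+Thy1 and hepatocyte it was 186, and 47, 440, 328, 304, 2685 and 575, with 63 when all probe sets were tested and 31 to 472 with arrays left out. Median centring shifts the median of all genes between SHPC+Thy1 and SHPC to 0.12, against 0.02 as deposited. The cause of these shifts was not tested.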
